A study of Homo sapiens with 6 samples.

Results

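Ribosome biogenesis is the assembly of ribosomal subunits in the nucleolus, and 39 genes of this pathway are described here in T24 cells labelled as OTUD1 knockout and in their controls. The genes were chosen by name, as rows of the expression table whose symbol equals one of the names. All 39 were found among 58735 genes, and 38 had a mean of at least 0.5 FPKM (fragments per kilobase of exon, scaled to sequencing depth) and were tested. RNA sequencing was performed on total RNA of T24, a human bladder cancer line, with 3 libraries labelled sgOTUD1 (genotype OTUD1 knockout) and 3 labelled sgNC (an empty vector as the negative control). All cells were grown in the same medium with serum. The labels do not say whether replicates came from separate cultures or whether the knockout line is 1 clone, and p-values therefore rest on a spread that may be technical.

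In the nucleolus RNA polymerase I transcribes a long precursor of ribosomal RNA. Small nucleolar ribonucleoproteins (snoRNPs) of the box C/D and box H/ACA classes guide its methylation and pseudouridylation. The precursor is then folded, cut and packed with ribosomal proteins, through the small subunit processome on one branch and the pre-60S particles on the other. The pathway is active in growing tumour cells, and many of its genes are known targets of the transcription factor MYC.

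Each library held 16697370 to 17191933 reads on genes, and the tested members had 118 to 11912 reads each per library. OTUD1 itself was at 16.2, 17.9 and 17.1 FPKM in the libraries labelled sgOTUD1, against 13.9, 15.6 and 14.6 FPKM in sgNC, so its transcript was not lower under the knockout label. The files therefore do not show the knockout at the RNA level, and sgOTUD1 here means the libraries with that label. The mitochondrial genome's 13 mRNAs were all lower in sgOTUD1, by unequal amounts, with log2 fold changes from -2.30 to -0.21. Their level is not a direct measure of RNA quality. Mitochondrial genes took 2.08% to 2.23% of assigned reads in sgOTUD1 and 3.80% to 4.11% in sgNC, and the part of this difference in the results below was not tested. All 9 epithelial and basal urothelial markers reached 1 FPKM, with summed levels of 4374 to 4651 FPKM in sgOTUD1 and 3707 to 4029 FPKM in sgNC. Of the 6 mesenchymal markers 4 reached 1 FPKM, and their sum was 145 to 152 FPKM in sgOTUD1 and 205 to 212 FPKM in sgNC. Single markers did not all follow these sums. In the limma test below 5 epithelial markers were higher and 2 lower, CDH1 (log2 fold change -0.51) and TP63 (-0.19). Of the 4 mesenchymal markers tested, VIM (0.51) and TWIST1 (0.78) were higher, and FN1 (-0.88) and CDH2 (-0.22) lower. Over all genes tested 31.2% were higher and 24.7% lower. The mesenchymal markers ZEB1 and ZEB2 stayed at or below 0.184 FPKM, and that these are T24 cells is known from the labels alone. Summed markers of fibroblasts (6 genes), endothelium (4) and leukocytes (6) stayed at or below 4.09, 0.902 and 0.599 FPKM in sgOTUD1 and 6.17, 2.69 and 1.37 FPKM in sgNC. The fibroblast gene COL1A2 was at 0 in all but 1 library and the leukocyte gene PTPRC in all of them. Most of these sums came from COL1A1 (mean 3.85 FPKM in sgOTUD1 and 5.87 FPKM in sgNC), CDH5 (0.644 and 2.20 FPKM) and CSF1R (0.429 and 1.14 FPKM). Each was the 1 gene of its list that was tested, and each was called lower in sgOTUD1.

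More members were higher than lower in sgOTUD1. Of the 38 tested, 20 were higher, 7 were lower and 11 did not pass (limma on log2(FPKM + 1), Benjamini-Hochberg adjusted p under 0.05 over 14658 genes). Without sgNC replicate 2 or 3 the number lower was 4. Over all genes tested, 31.2% were higher and 24.7% lower, and over the 11372 nuclear protein-coding genes 34.5% and 27.5%. With limma-voom on recovered reads 22 members were higher and 7 lower, against 33.1% and 27.4% of all genes. The members' median log2 fold change was 0.22, against 0.03 for all genes. Genes with high levels were more often higher, and 30 of the 38 members had a mean of at least 5 FPKM. Among the 7047 genes at that level 49.1% were higher and 24.9% lower, and their median was 0.14. Of the 30 members there, 18 were higher and 5 lower, and their median lay 0.08 above that of the 7047 genes. The values of the groups did not overlap, with sgOTUD1 above, for 22 members and, with sgOTUD1 below, for 8, while over all genes these shares were 34.9% and 29.1%. Reads on the 39 genes made up 0.305% to 0.309% of assigned reads in sgOTUD1 and 0.276% to 0.278% in sgNC. In bulk RNA a change in the number of expressing cells and a change of RNA per cell cannot be told apart.

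This balance depends on the scaling. The deposited values already carry median-of-ratios size factors computed over reads; the rescaling tried here took median ratios over genes of at least 5 FPKM only. Turning FPKM into TPM (values rescaled to the same sum in every library) left 12 members higher and 10 lower, that rescaling 13 higher and 10 lower, and a correction of each library for exon length 11 higher and 9 lower. The shares over the same 14658 genes were then 21.4% higher and 34.7% lower with TPM, while over the 19388 genes that pass the minimum in TPM they were 16.2% and 27.8%. They were 22.3% and 34% with rescaling, and 21.3% and 31.9% with length correction. On the log2 scale the median of all genes moved by -0.13 with TPM on the same genes, by -0.11 with rescaling and by -0.10 with length correction. Relative to the median of all genes, the members' median was 0.19 higher with deposited values, 0.18 with TPM on the same genes, 0.16 with rescaling and 0.08 with length correction. Of the 20 members that rose, 11 were also called higher with length correction, and 6 of the 7 that fell were also called lower.

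**Figure D1:**
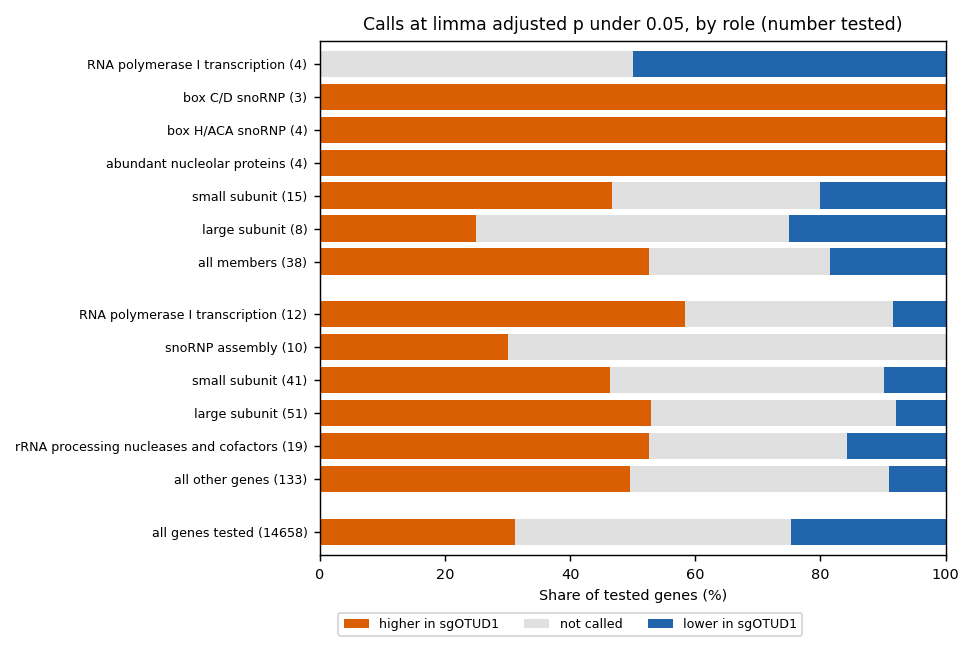
Share of tested genes called higher (orange), not called (grey) or called lower (blue) in sgOTUD1, in percent, for the members by role (upper bars), for other ribosome biogenesis genes (middle bars) and for all 14658 genes tested. All 11 members of the snoRNP and abundant nucleolar groups were called higher, and 0 of 4 genes of RNA polymerase I transcription were, beside 31.2% of all genes. Of the other genes, 7 of 12 for RNA polymerase I transcription and 3 of 10 for snoRNP assembly were higher. With length correction, not drawn here, 2 of 3 box C/D, 1 of 4 box H/ACA and 4 of 4 abundant nucleolar members were higher, and 1 box H/ACA member was lower. The shares over all genes were then 21.3% higher and 31.9% lower.

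Among the genes of RNA polymerase I transcription, the transcript of the enzyme's catalytic subunit fell and none of the 4 members rose. POLR1A, which encodes this largest subunit (ENSG00000068654, chromosome 2, 86020216 to 86106155, minus strand of hg38), was at 1.63, 1.55 and 1.55 FPKM in sgOTUD1, against 2.83, 2.65 and 3.19 FPKM in sgNC. Every sgOTUD1 library lay below every sgNC library, with a difference of -0.59 in log2 (SE 0.070, limma adjusted p = 0.000387) and a ratio of means of 0.546. UBTF, the factor that binds the ribosomal DNA promoter and keeps the genes open, was at 9.20, 9.21 and 9.18 FPKM in sgOTUD1, against 10.5, 10.8 and 12.2 FPKM in sgNC. The groups did not overlap, and UBTF fell by 0.25 on the log2 scale (SE 0.056, limma adjusted p = 0.00707). RRN3, the factor also called TIF-IA that brings the polymerase to the promoter, was at 10.4, 10.1 and 11.2 FPKM in sgOTUD1, against 9.44, 9.86 and 9.57 FPKM in sgNC. All 3 sgOTUD1 values of RRN3 were above those of sgNC, but the difference did not pass, at a log2 fold change of 0.12 (95% interval 0.01 to 0.24, limma adjusted p = 0.067). Its 3 pseudogenes took 16.96% of the reads of gene and pseudogenes together, so its value carries that uncertainty. POLR1B, the second-largest subunit, was at 7.80 ± 0.37 FPKM in sgOTUD1 and 7.30 ± 0.40 FPKM in sgNC (SD, n = 3 each), a log2 fold change of 0.08 with an interval of -0.04 to 0.21.

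A list of 8 genes for subunits of the polymerase I enzyme was set side by side after their values had been seen. Subunits outside this list were not looked at. The 8 genes moved unequally, with 5 higher and 1 lower, beside 31.2% and 24.7% over all genes. POLR1C, shared with RNA polymerase III, was at 5.76 ± 0.30 FPKM in sgOTUD1 and 2.90 ± 0.11 FPKM in sgNC (SD, n = 3 each), a log2 fold change of 0.79. POLR1D, shared in the same way, was at 8.29 ± 0.24 FPKM in sgOTUD1 and 5.23 ± 0.12 FPKM in sgNC (0.58), and with length correction both remained higher, at 0.74. ZNRD1 (0.50), POLR1E (0.39) and TWISTNB (0.25) also rose, whereas CD3EAP (0.17, limma adjusted p = 0.0858) and POLR1B did not pass. With length correction POLR1E and TWISTNB were no longer called (0.10 and 0.11). The fall of POLR1A was of the opposite sign to all 5 of these increases, and it held with length correction at -0.41 (limma adjusted p = 0.00272).

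All 3 box C/D members rose, beside 31.2% of all genes tested and 49.1% of genes with a mean of at least 5 FPKM. FBL, fibrillarin, the methyltransferase of this particle (ENSG00000105202, chromosome 19, 39834458 to 39846414, minus strand), was at 98.7, 102.2 and 100.5 FPKM in sgOTUD1, against 64.0, 66.0 and 66.3 FPKM in sgNC. All 3 sgOTUD1 libraries lay above all 3 sgNC libraries, and the gap between the groups was wider than the range within either. The log2 fold change was 0.61 (SE 0.031, limma adjusted p = 1.19e-05). The transcripts of the scaffold proteins NOP56 and NOP58, which hold fibrillarin on the guide RNA, changed less. NOP58 was at 20.8 ± 1.3 FPKM in sgOTUD1 and 16.3 ± 0.49 FPKM in sgNC (0.33), and NOP56 was at 26.8 ± 0.58 FPKM in sgOTUD1 and 22.9 ± 0.44 FPKM in sgNC (0.22). With length correction the increase of FBL was 0.26 and that of NOP56 0.14, and NOP58 was no longer called, at 0.10 (limma adjusted p = 0.167). NOP56 was not called with TPM (0.07) or rescaling (0.08).

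The transcripts of all 4 proteins of the box H/ACA particle rose as well, and with length correction DKC1 was the 1 that was still called higher. Over all genes 31.2% were higher, and 21.3% with length correction. NOP10, NHP2 and GAR1 have under 3243 nt of exon, and 54% of nuclear protein-coding genes of that length were higher. NOP10, the smallest of them (ENSG00000182117, chromosome 15, 34341713 to 34343177, minus strand, 554 nt of exon), was at 75.5, 78.1 and 77.1 FPKM in sgOTUD1, against 49.7, 48.0 and 52.1 FPKM in sgNC. The groups were far apart, differing by 0.61 on the log2 scale (SE 0.039, limma adjusted p = 2.59e-05). With length correction NOP10 was at 0.08 (limma adjusted p = 0.116). DKC1, dyskerin, the pseudouridine synthase of the particle and the gene of X-linked dyskeratosis congenita, was at 23.5, 21.9 and 23.6 FPKM in sgOTUD1, against 17.98, 17.0 and 17.6 FPKM in sgNC. DKC1 rose by 0.37, and by 0.22 with length correction (limma adjusted p = 0.00582). NHP2, which binds the guide RNA, was at 41.1 ± 2.3 FPKM in sgOTUD1 and 33.1 ± 1.6 FPKM in sgNC, a log2 fold change of 0.30 that turned to -0.12 with length correction (limma adjusted p = 0.0453). The exons of NHP2 overlap those of RMND5B, on the opposite strand, over 27.4% of their length, and whether reads were counted by strand is not stated in the labels. GAR1, which joins the particle last, was at 5.89 ± 0.44 FPKM in sgOTUD1 and 4.56 ± 0.39 FPKM in sgNC (0.31), and at 0.00 with length correction. GAR1 was not called with TPM (adjusted p = 0.0687).

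The transcripts of the 4 abundant nucleolar proteins all rose, and all 4 were also called higher with length correction. Over all genes 31.2% were higher, and 21.3% with length correction. Among genes with a mean of at least 5 FPKM, as all 4 had, 49.1% were higher. NPM1, nucleophosmin, the main protein of the granular outer layer of the nucleolus (ENSG00000181163, chromosome 5, 171387116 to 171411137, plus strand), had the highest level of the 39 genes. It was at 187, 179 and 185 FPKM in sgOTUD1, against 119, 121 and 122 FPKM in sgNC. The groups did not overlap, and the log2 fold change was 0.60 (SE 0.031, limma adjusted p = 1.25e-05), or 0.41 with length correction. Its 45 processed pseudogenes took 2.04% of the reads of gene and pseudogenes together. GNL3, nucleostemin, a GTPase that shuttles between nucleolus and nucleoplasm, had the largest log2 fold change of any tested member with deposited values. It was at 32.0, 32.9 and 29.95 FPKM in sgOTUD1, against 18.4, 20.3 and 19.4 FPKM in sgNC, a log2 difference of 0.68 (SE 0.052, limma adjusted p = 5.41e-05) and 0.45 with length correction. NOLC1, which brings snoRNPs to the nucleolus, was at 58.9 ± 2.4 FPKM in sgOTUD1 and 46.4 ± 0.60 FPKM in sgNC (0.34). NCL, nucleolin, a binding protein of the ribosomal RNA precursor, moved least, at 65.3 ± 1.5 FPKM in sgOTUD1 and 59.0 ± 1.0 FPKM in sgNC (0.14, limma adjusted p = 0.0082). NCL was not called with TPM (-0.01) or rescaling (0.01).

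**Figure D2:**
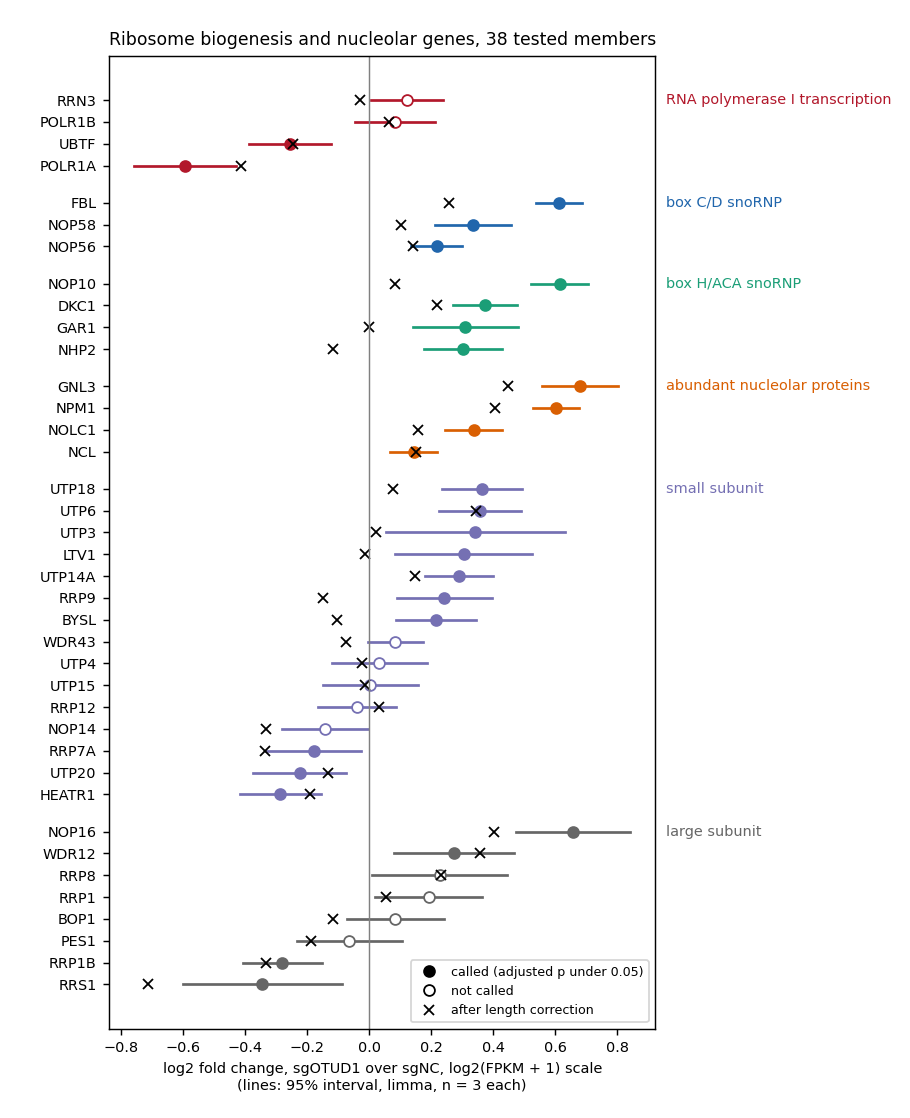
Log2 fold change of the 38 tested members (horizontal axis, sgOTUD1 over sgNC) by role, with the 95% interval of the limma fit as a line. Filled circles passed an adjusted p of 0.05, open circles did not, and crosses give the value after length correction, which lies to the left of the circle for the short genes NOP10 and RRS1 and to the right for the long gene POLR1A.

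Of the 15 members of the small subunit branch, 7 were higher, 3 lower and 5 not called, and with length correction 2 were higher and 4 lower. Over all genes 31.2% were higher and 24.7% lower, and with length correction 21.3% and 31.9%. UTP18, of the UTP-B complex, had the highest level and the largest increase, at 21.1, 19.2 and 21.6 FPKM in sgOTUD1, against 16.0, 15.1 and 16.4 FPKM in sgNC. The groups did not overlap (log2 fold change 0.36, SE 0.055, limma adjusted p = 0.00123), but with length correction UTP18 was at 0.08 (limma adjusted p = 0.265). UTP6, of the same complex, was at 9.48, 8.40 and 8.75 FPKM in sgOTUD1, against 6.78, 6.94 and 6.38 FPKM in sgNC. UTP6 rose by 0.36, and by 0.34 with length correction (limma adjusted p = 0.00172). UTP14A, which activates a helicase that frees the U3 guide RNA, was at 5.06 ± 0.11 FPKM in sgOTUD1 and 3.96 ± 0.15 FPKM in sgNC, and its increase of 0.29 was 0.15 with length correction (limma adjusted p = 0.0399).

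HEATR1 had the largest decrease of this branch with deposited values, though with length correction RRP7A (-0.34) and NOP14 (-0.33) were lower. It encodes a large scaffold of the t-UTP complex, which joins the precursor during transcription (ENSG00000119285, chromosome 1, 236549005 to 236604504, minus strand). HEATR1 was at 6.80, 6.65 and 6.01 FPKM in sgOTUD1, against 8.09, 8.44 and 7.82 FPKM in sgNC. All sgOTUD1 libraries were below all sgNC libraries (log2 fold change -0.29, SE 0.055, limma adjusted p = 0.00403, and -0.19 with length correction). Its exons overlap those of LGALS8, on the opposite strand, over 23.2% of their length, and LGALS8 was at a log2 fold change of 0.04. The other t-UTP members did not pass, with WDR43 at 13.1 ± 0.036 FPKM in sgOTUD1 and 12.3 ± 0.37 FPKM in sgNC (0.09, interval -0.0035 to 0.17). UTP4 was at 9.82 ± 0.71 FPKM in sgOTUD1 and 9.57 ± 0.58 FPKM in sgNC (interval -0.12 to 0.19), and UTP15 at 2.17 ± 0.16 FPKM in sgOTUD1 and 2.16 ± 0.091 FPKM in sgNC (interval -0.15 to 0.16).

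The remaining small subunit members had changes of 0.34 or less in size. UTP20, another large scaffold protein, was at 1.49, 1.47 and 1.46 FPKM in sgOTUD1, against 1.77, 1.98 and 1.92 FPKM in sgNC. UTP20 fell by 0.22 (limma adjusted p = 0.0199), but was not called with length correction (-0.13, limma adjusted p = 0.116), nor when any of 4 single libraries was left out (sgNC replicate 2 or 3, sgOTUD1 replicate 2 or 3, adjusted p from 0.0505 to 0.071). RRP7A (-0.18, limma adjusted p = 0.0499) lost its call without any single library other than sgOTUD1 replicate 3 (adjusted p from 0.0834 to 0.134). Its exons overlap those of the opposite-strand pseudogene SERHL over 15.9% of their length. RRP9, the U3-specific protein, was at 13.8 ± 0.14 FPKM in sgOTUD1 and 11.6 ± 1.1 FPKM in sgNC (0.24), and with length correction it turned to -0.15 (limma adjusted p = 0.0463). BYSL, a late factor of the small subunit, was at 0.22 and turned to -0.10 with length correction, where it was not called. RRP9 and BYSL were also not called with TPM or rescaling.

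UTP3 (0.34, limma adjusted p = 0.048) and LTV1 (0.30, limma adjusted p = 0.0277), a factor of late small subunit export, passed narrowly and lost their calls under several settings. UTP3 was not called without any of 5 libraries, all but sgNC replicate 2 (adjusted p from 0.0581 to 0.136), nor with length correction (0.02, adjusted p = 0.89), TPM (adjusted p = 0.20) or rescaling (adjusted p = 0.159). LTV1 was not called without sgNC replicate 1 (adjusted p = 0.0815) or 2 (0.0715), nor with length correction (adjusted p = 0.914), TPM (0.179) or rescaling (0.118), and 34.8% of its exon length is shared with other genes on the same strand. NOP14 (-0.14) and RRP12 (-0.04), factors of processome assembly and of subunit export, did not pass. NOP14 was called lower with length correction, at -0.33 (limma adjusted p = 0.00302). Its exons overlap those of NOP14-AS1, on the opposite strand, over 17.1% of their length, and NOP14-AS1 was at a log2 fold change of -0.29.

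In the large subunit branch 2 of 8 tested members were higher, 2 lower and 4 not called, shares close to those over all genes (31.2% and 24.7%). NOP16, a small factor of the pre-60S particle (ENSG00000048162, chromosome 5, 176383938 to 176388975, minus strand), was at 9.65, 10.4 and 9.34 FPKM in sgOTUD1, against 6.55, 5.85 and 5.21 FPKM in sgNC. The groups did not overlap, and the log2 fold change was 0.66 (SE 0.078, limma adjusted p = 0.000404), or 0.40 with length correction. Its exons overlap those of HIGD2A (7.93% of their length) and ARL10 (12.02%) on the opposite strand, and HIGD2A, at a mean of 43.0 FPKM, had a log2 fold change of 0.67. RRS1, which loads the 5S RNA particle (ENSG00000179041, chromosome 8, 66429028 to 66430733, plus strand), was at 10.2, 8.19 and 7.35 FPKM in sgOTUD1, against 10.9, 10.5 and 11.8 FPKM in sgNC. The first sgOTUD1 library lay close to the lowest sgNC library, and the difference of -0.34 (SE 0.107, limma adjusted p = 0.0307) was not called without any of 5 libraries, all but sgOTUD1 replicate 1 (adjusted p from 0.0543 to 0.0952). With length correction RRS1 was at -0.71 (limma adjusted p = 0.00223), the largest corrected change of the 38.

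PES1, BOP1 and WDR12 form the PeBoW complex, which is needed for maturation of the large subunit RNAs. WDR12 was called higher and the other members were not, and the difference between them was not tested. BOP1 was at 37.8, 41.1 and 40.5 FPKM in sgOTUD1, against 35.8, 35.5 and 41.4 FPKM in sgNC, with overlapping groups and an interval of -0.07 to 0.24. PES1 was at 8.78 ± 0.53 FPKM in sgOTUD1 and 9.23 ± 0.85 FPKM in sgNC, with an interval of -0.23 to 0.11. WDR12 was at 3.57, 3.36 and 3.49 FPKM in sgOTUD1, against 2.93, 2.93 and 2.27 FPKM in sgNC, a log2 fold change of 0.27 (limma adjusted p = 0.0252). That call ended without sgOTUD1 replicate 1 (adjusted p = 0.0695) or 3 (0.0649), and WDR12 was not called with TPM (0.20, adjusted p = 0.192) or rescaling (0.17, adjusted p = 0.137). With length correction it was at 0.36 (limma adjusted p = 0.00789). Of the paralogues RRP1 and RRP1B, RRP1B fell, to 9.76 ± 0.67 FPKM in sgOTUD1, against 12.05 ± 0.29 FPKM in sgNC (-0.28, limma adjusted p = 0.00386, and -0.33 with length correction). RRP1 was at 6.79 ± 0.62 FPKM in sgOTUD1 and 5.81 ± 0.42 FPKM in sgNC (0.19, limma adjusted p = 0.0579). RRP8, a methyltransferase of the large subunit RNA, was at 2.29 ± 0.32 FPKM in sgOTUD1 and 1.80 ± 0.18 FPKM in sgNC (0.23, limma adjusted p = 0.0717).

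NOP2, the other methyltransferase of that RNA, was not tested. It was listed at 0.141, 0.092 and 0.144 FPKM in sgOTUD1 and 0.169, 0.107 and 0.061 FPKM in sgNC, from 7 to 11 reads per library in sgOTUD1 and 5 to 14 in sgNC. The annotation places a second protein-coding gene, AC006064.6, on the same strand over 54.4% of the exon length of NOP2, and that gene was at 0 in every library. Its part in the low level of NOP2 was not tested, and no fold change is given.

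**Figure D3:**
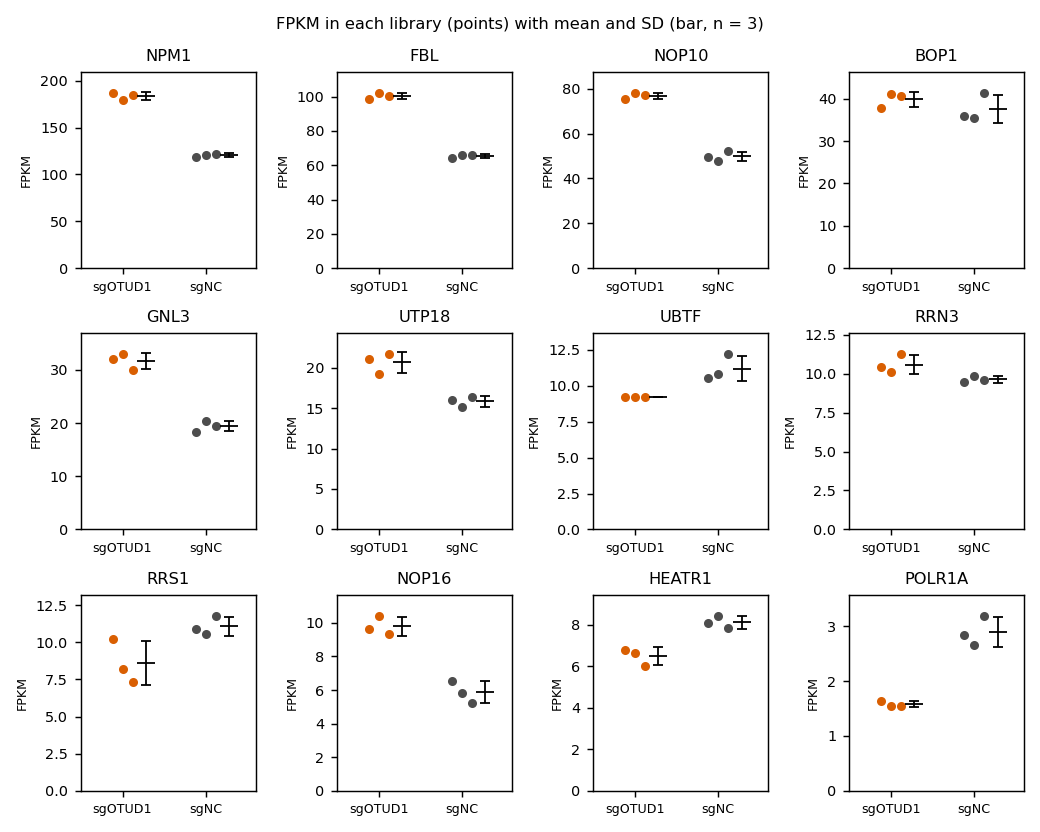
FPKM of 12 members in every library (points, sgOTUD1 left and sgNC right of each panel) with the mean and SD of 3 libraries as a bar, each panel with its own axis from 0. NPM1, FBL, NOP10, GNL3, UTP18 and NOP16 lie higher in all sgOTUD1 libraries than in any sgNC library, POLR1A, UBTF, HEATR1 and RRS1 lie lower, and the BOP1 groups overlap.

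Between genes, levels per length spanned a wide range. By mean FPKM over 6 libraries the order began with NPM1 (152), FBL (82.9), NOP10 (63.4), NCL (62.1), NOLC1 (52.6), BOP1 (38.7) and NHP2 (37.1), and ended, before NOP2, with POLR1A (2.24), UTP15 (2.16), RRP8 (2.05) and UTP20 (1.68). NOP10 and NCL changed places between groups, with NOP10 above NCL in all 3 sgOTUD1 libraries and below it in all 3 sgNC libraries. POLR1A also moved in the order: its mean of 1.58 FPKM in sgOTUD1 lay below those of UTP15 and RRP8, and its mean of 2.89 FPKM in sgNC lay above that of WDR12. The summed FPKM of the 39 genes was 873 to 882 in sgOTUD1 and 674 to 698 in sgNC. These sums carry the scaling between libraries and weigh short genes more. As a share of assigned reads the relative difference was smaller, at 0.305% to 0.309% in sgOTUD1 and 0.276% to 0.278% in sgNC.

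The log2 fold changes went with exon length among the members as they did among all genes. Across the 38 members, Pearson's r of log2 fold change with log2 exon length was -0.53 and Spearman's rho -0.53, and across 11372 nuclear protein-coding genes these were -0.35 and -0.38. Genes are not independent replicates, and these points share the same 6 libraries. The slope was -0.17 per doubling of length among members and -0.15 among all these genes. When these genes were split by length into 4 equal bins, in the shortest, under 3243 nt, the members' median was 0.31 against 0.25 for all 2842 genes there, and 10 of 11 members were called higher and 1 lower, beside 54% and 12.6% of all genes in the bin. From 3243 to 5067 nt the members' median was 0.19 against 0.09, with 6 of 13 higher and 1 lower, beside 39.8% and 20.8%. From there to 7456 nt it was 0.08 against -0.02, with 3 of 9 higher and 2 lower, beside 28% and 30.2%. In the longest bin it was -0.22 against -0.15, with 1 of 5 higher and 3 lower, beside 16.1% and 46.2%. The members' median exon length was 4108.5 nt, against 5067 nt for all these genes. With length correction the members' slope was 0.00.

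**Figure D4:**
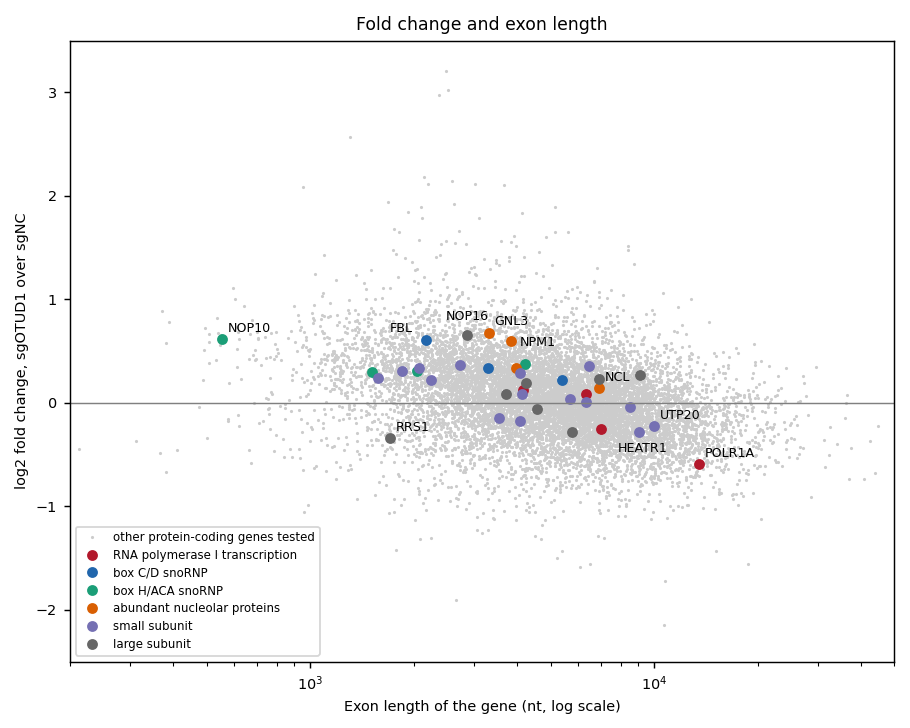
Log2 fold change (sgOTUD1 over sgNC) against exon length in nt on a log axis, for 11372 nuclear protein-coding genes (grey) and for the 38 tested members coloured by role. Both fall with length, NOP10 lies at the short and high end and POLR1A at the long and low end, and RRS1 is a short gene with a decrease.

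Other genes of the pathway, a list of 134 with 133 tested, were also more often higher than lower, with 66 higher, 12 lower (31.2% and 24.7% over all genes) and a median of 0.15. With length correction 46 were higher and 26 lower (21.3% and 31.9% over all genes), and without sgNC replicate 1 the number lower was 7. Among 12 further genes of RNA polymerase I transcription, 7 were higher and 1 lower. TAF1D, a subunit of the promoter factor SL1, was at 43.8 ± 2.0 FPKM in sgOTUD1 and 14.6 ± 0.12 FPKM in sgNC (SD, n = 3 each), a log2 fold change of 1.52 (limma adjusted p = 2.26e-06). TCOF1, treacle, the partner of UBTF, was the decrease, at 15.9 ± 0.39 FPKM in sgOTUD1 and 21.6 ± 0.89 FPKM in sgNC (-0.42). Of 10 snoRNP assembly genes 3 were higher and 0 lower, among them SNU13, the core box C/D protein that binds the guide RNA first, at 59.1 ± 1.8 FPKM in sgOTUD1 and 36.2 ± 1.2 FPKM in sgNC (0.69), and ZNHIT3 (0.53). The third was RPAP3 (0.43), and with length correction these 3 were higher and PIH1D1 was lower (-0.32).

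Among 41 tested small subunit genes 19 were higher and 4 lower. Over all genes 31.2% were higher and 24.7% lower, and these shares also belong beside the next counts. The nuclease NOB1, which makes the last cut of the small subunit RNA, was at 37.4 ± 1.6 FPKM in sgOTUD1 and 23.4 ± 1.0 FPKM in sgNC (0.65), and the methyltransferase BUD23 was at 14.4 ± 0.44 FPKM in sgOTUD1 and 9.25 ± 0.43 FPKM in sgNC (0.59). NOP9 fell to 3.10 ± 0.26 FPKM in sgOTUD1, against 4.91 ± 0.36 FPKM in sgNC (-0.53), and NOL6 was at -0.29. Of 51 large subunit genes 27 were higher and 4 lower. BRIX1 was at 21.8 ± 0.46 FPKM in sgOTUD1 and 12.5 ± 0.52 FPKM in sgNC (0.76), and RSL1D1 was at 0.54. GNL3L, the paralogue of GNL3, fell to 3.53 ± 0.49 FPKM in sgOTUD1, against 5.67 ± 0.21 FPKM in sgNC (-0.56), the opposite direction to GNL3. MDN1, a giant ATPase of the pre-60S particle with 18602 nt of exon, was at -0.37, and at -0.08 with length correction, where it was not called (limma adjusted p = 0.273). Among 19 processing nucleases and cofactors 10 were higher and 3 lower, with the exosome genes EXOSC5 (0.64) and EXOSC1 (0.54) higher and EXOSC6 (-0.15) and MYBBP1A (-0.13) lower. EXOSC6 was not called without sgNC replicate 1 or 2 or sgOTUD1 replicate 2 (limma adjusted p from 0.0518 to 0.073), and MYBBP1A was called without sgNC replicate 2 but not without any other library (adjusted p from 0.0513 to 0.104).

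**Figure D5:**
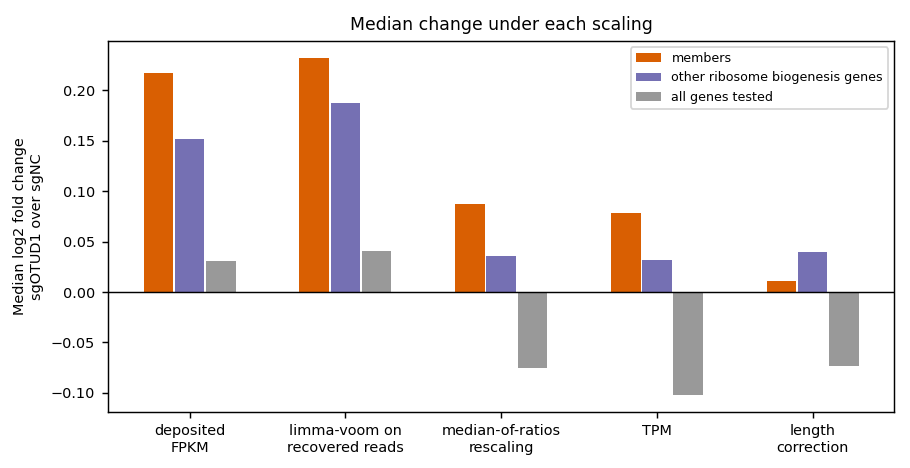
Median log2 fold change (sgOTUD1 over sgNC) of the tested members (orange), of the other ribosome biogenesis genes (purple) and of all genes tested (grey) with the deposited FPKM, with limma-voom on recovered reads and under 3 other scalings, TPM being on the same genes as the deposited values. The members' median is 0.22, 0.23, 0.09, 0.08 and 0.01 from left to right, above that of all genes each time.

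The product of the pathway cannot be read from these values, since 18S, 28S and 45S ribosomal RNA have no row in the table. The 8 rows of 5.8S RNA together had 6 to 8 reads per library, and the 17 rows of 5S RNA had 0. Guide RNAs were also rare. Of the members, 6 carry snoRNA genes within their bounds (NOP56, NOP58, NCL, DKC1, WDR43 and GNL3). The 6 such genes inside GNL3 had 118 reads over all 6 libraries together, the 5 inside NOP56 and the 2 inside DKC1 had 0, and no snoRNA in a member had more than 60.

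The promoters of the members were searched for 5 motifs, among them the E-box CACGTG, which MYC binds. Whether MYC had a part in the changes above was not tested. RefSeq windows on GRCh38.p14 from 250 bases before to 50 after the start were found for 33 of the 39 genes, but not for BOP1, NOP58, RRP12, RRS1, RRP1B and NOLC1. Of these 33 genes, 15 (45.5%) held CACGTG, against 12.8% of 9086 tested protein-coding genes and 7.26% of all 35116 windows. CCGGAAG, a core of ETS factor sites, was in 11 of the 33 (33.3%), against 22.96% of tested protein-coding genes and 10.3% of all windows. The palindromic NRF1 and BANP motifs and AAGATGGCG, a YY1 site, were in 2, 1 and 0 members, against 2.71%, 1.06% and 4.997% of tested protein-coding genes and 1.24%, 0.424% and 1.75% of all windows. Both strands were searched, and no E-box overlapped another of the 5 motifs. A match is a run of letters and does not show binding. In 6 of the 15 genes an E-box began before the start, and in the others after it. That of RRP9 began 5 bases before the start and reached over it.

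The stretches below show the E-box in capitals with its flanking bases, on the strand of the gene, for the members with the largest increases that hold it, for other members of the small subunit branch, and for UTP20, which fell with the deposited values.
GNL3 (chr3:52686026-52686055, plus strand): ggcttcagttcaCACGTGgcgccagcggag
FBL (chr19:39846356-39846385, minus strand): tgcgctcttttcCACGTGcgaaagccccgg
NOP10 (chr15:34343130-34343159, minus strand): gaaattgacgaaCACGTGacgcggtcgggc
UTP18 (chr17:51260445-51260474, plus strand): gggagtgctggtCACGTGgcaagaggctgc
RRP9 (chr3:51941892-51941921, minus strand): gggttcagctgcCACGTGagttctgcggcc
WDR43 (chr2:28894658-28894687, plus strand): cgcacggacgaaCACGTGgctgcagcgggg
UTP20 (chr12:101280083-101280112, plus strand): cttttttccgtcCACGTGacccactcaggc
NOP10 and UTP18 each held a second E-box in their windows.

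The difference between members with and without the E-box was not tested. The 14 tested members that hold it had a median log2 fold change of 0.27, with 9 higher and 1 lower. The 18 that do not hold it had 0.20, with 9 higher and 4 lower. Over all genes 31.2% were higher and 24.7% lower. With length correction the medians were -0.02 with the E-box and 0.06 without it. NPM1, DKC1, NCL, NOP16 and UTP6 rose without an E-box in this window, and POLR1A, UBTF and HEATR1 fell without one.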

How the data were processed

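RNA-seq of total RNA was analysed from 3 sgOTUD1 and 3 sgNC libraries. Per the labels' protocols, the NEBNext Ultra kit was used for the libraries. Reads were counted with featureCounts 1.5.0-p3 on hg38, and DESeq2 1.20.0 was used, per the submitters' processing notes; the aligner, strand setting and annotation release were not stated. The authors deposited FPKM per gene, with the scaling between libraries already in them. FPKM times the GENCODE 29 exon length gave whole reads in all libraries (within 0.001 reads), which served for depth and for limma-voom. Genes with a mean of at least 0.5 FPKM were tested with limma 3.58.1 in R 4.3.3 (robust, with an intensity trend), two-sided, on log2(FPKM + 1) and with Benjamini-Hochberg adjustment. Fold changes on that scale understate changes of low genes. Length correction divided each library by a natural spline (4 degrees of freedom) in log2 exon length. The members and lists were chosen with earlier results of these data known. Values in every library are given for the member of highest level and those of largest increase and decrease in each role, and for some others; of the other pathway genes, up to 2 higher and 2 lower with the smallest adjusted p per role are named, and RPAP3, PIH1D1 and the polymerase subunits were added after their values were seen. The number of libraries limits the precision, since an exact permutation test of 3 against 3 cannot go below p = 0.1.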

Additional observations from a re-analysis of the deposited data

How the results depend on the processing

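Of 20 members higher, 13 were called higher with median-of-ratios rescaling, 12 with TPM, 11 with length correction and 12 with TPM on the genes of the deposited test, a setting chosen after seeing the data. Leaving out single libraries gave 18 to 21 members higher and 4 to 6 lower, the 4 without sgNC replicate 2 or 3, and an adjusted p under 0.01 also left 4 lower. Over all genes 4577 were higher and 3615 lower with all libraries. Without single libraries 4074 to 4308 of all genes were higher and 3059 to 3314 lower. At an adjusted p under 0.01 these counts over all genes were 3426 and 2500. Of the 7047 genes with a mean of at least 5 FPKM, 3463 were higher and 1757 lower. Of the other pathway genes, 41 were higher with TPM, beside 16.2% of all genes. Lower ones numbered 25 with rescaling, 25 with TPM, 27 with TPM on the genes of the deposited test, 26 with length correction, 6 at an adjusted p under 0.01, and 7 to 11 when single libraries were left out. In the first 4 of these settings 34%, 27.8%, 34.7% and 31.9% of all genes were lower. Length correction reversed the sign of NHP2 (-0.12), GAR1 (-0.0014), RRP9 (-0.15), RRP12 (0.031), BOP1 (-0.12), WDR43 (-0.073), UTP4 (-0.022), UTP15 (-0.012), BYSL (-0.10), LTV1 (-0.014) and RRN3 (-0.030). TPM reversed NCL (-0.0065), BOP1 (-0.065), WDR43 (-0.059), UTP4 (-0.11), UTP15 (-0.13), RRN3 (-0.016) and POLR1B (-0.054), and rescaling reversed BOP1 (-0.051), WDR43 (-0.044), UTP4 (-0.093), UTP15 (-0.090), RRN3 (-0.0030) and POLR1B (-0.038). Without single libraries UTP4 ranged from -0.013 to 0.087 and UTP15 from -0.032 to 0.042. The cause was not tested. Same-numbered libraries did not deviate together (correlations 0.0016, -0.051 and -0.0007). These correlations cannot tell whether same-numbered libraries shared a culture or a day, which the labels do not say. With the replicate block 21 members were higher and 6 lower, and over all genes 4431 and 3360. In every alternative run for them, 8 members stayed higher (NOP16, FBL, NPM1, DKC1, UTP6, UTP14A, NOLC1 and GNL3) and 4 lower (RRP1B, HEATR1, UBTF and POLR1A), where UTP14A and POLR1A were not tested at a mean of at least 5 FPKM. How many of all tested genes kept their call in every alternative was not counted. Whether 8 and 4 are more than usual is therefore not known. NOP2, with 5 to 14 reads per library, is the 1 member below the minimum level for the test.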
